A study of Fragaria x ananassa with 21 samples.

Results

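The degradome of the strawberry receptacle was listed as predicted pairs of a small RNA and a cleavage position on an assembled transcript (unigene). The sites described here were those assigned to predicted new miRNAs, whose names begin with PC-, and that had at least 1 read in at least 1 of 7 libraries. They numbered 452 of the 859 pairs with reads, and the other 407 belonged to miRNAs named after known families. The members came from 178 PC sequences and lay at 424 positions of 394 unigenes. Since members were chosen by their degradome reads, the read totals below are a description and were not tested.

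Plant miRNAs pair with a target mRNA over nearly their whole length, and an Argonaute protein then slices the mRNA opposite the middle of the miRNA. The downstream fragment keeps an uncapped 5′ end, and degradome sequencing reads the first bases of such fragments. A pile of reads at the predicted position is what slicing leaves behind, although ends of ordinary mRNA decay are read as well.

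All fruits were octaploid Fragaria × ananassa of the cultivar Toyonoka, injected through the pedicel with 100 μL of liquid at 2 weeks after anthesis. CK fruits received water and were taken on day 0 (CK0), 5 (CK5) and 8 (CK8). ABA5 and ABA8 received ABA at 1 μM, and NDGA5 and NDGA8 received NDGA, a blocker of ABA synthesis, at 100 μM, with the number giving the day. The series' design text differs from these sample labels, in that it puts ABA8 on day 5 and gives NDGA5 as water, and the labels were used for every comparison of ABA8 and NDGA5. RNA of 10 fruits was pooled by the labels, whereas the methods describe a pool of 3 replicates of 10 fruits. Each condition had 1 library per assay (degradome, small RNA and transcriptome), so the spread between fruits is not known and no condition was tested against another.

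The read totals behind the deposited scaling of the degradome ran from 13787038 in NDGA8 to 40989117 in CK0. Reads at a site are given raw, or as scaled reads, which are raw reads brought to the mean total of 25125816 reads. A single raw read thus counts for more in NDGA8 than in CK0, and 3 raw reads stand for 5.47 and 1.84 scaled reads there. CHS (comp115866_c0_seq11), a chalcone synthase unigene of pigment synthesis, was at 32, 4.98 and 110 RPKM in water fruit of day 0, 5 and 8, 26.3 and 145 with ABA and 6.73 and 26.7 with NDGA on day 5 and 8. It was highest in ABA8 and CK8, but CK0 was above ABA5 and NDGA8. In such bulk tissue, fewer cells of a type and less RNA per cell cannot be told apart.

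The sequences below are the PC sequences on which the results turn, with named miRNAs where both were assigned to the same position. Capitals mark bases 2 to 8, the seed, and all were read from the deposited tables.
PC-5p-52022_45: tGTCGCAGtagagatggcacg
ptc-miR3627b_R-1_1ss19GA: tGTCGCAGgagagatggcact
PC-5p-152357_11: tTTGTTTAtggtcatctagttc
ppe-MIR827-p5_1ss19CG: tTTGTTTAtggtcatctagtt
PC-5p-36983_74: tTTCACAGctttctcgaactg
mtr-miR396b-5p: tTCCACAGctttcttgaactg
PC-3p-4094_1077: tGCTCACTcttcttctgtcagc
osa-miR156j-3p_2ss9CT14T-: gCTCGCTCttcttctgtcagc
PC-5p-1425883_2: aGATCCACatcattctcatcc
PC-3p-57431_39: tCCGTAGGtaaagagttgttc
PC-3p-57035_39: tCAACATCactgttctcttcc
PC-3p-387_6421: tGAATTGGgatttgtcgaatt
PC-5p-4326114_1: gGCTTTCAaaagtttgatttag

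Counted from 1 at the 5′ end of the PC sequence, PC-5p-52022_45 differs from the miR3627 form by T9G and G21T and shares its seed. PC-5p-36983_74 differs from miR396b by T3C and C15T, of which the first lies in the seed. PC-5p-152357_11 holds the whole of the miR827 5p form and 1 base more. The best read PC sequence, PC-3p-217_12084, had 2 mismatches over 19 bases to its nearest named sequence, a miR482 form, and its small RNA reads were not analysed here. In all, 11 of the 178 PC sequences had at most 3 mismatches to a named sequence when shifted by up to 3 bases without gaps, and these held 38 of the 452 sites.

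The PC sequences differed in length from the named miRNAs with sites. Of the 178, 73 were 21 nt long, 42 were 24 nt and 26 were 22 nt, whereas 42 of 65 named miRNAs were 21 nt and none was 24 nt. Uracil, written T, was the first base of 42.1% of the PC sequences and 61.5% of the named ones, and adenine was first in 32% and 10.8%. A 21-nt length with a first uracil is typical of plant miRNAs, and 24 nt of the siRNAs that guide DNA methylation.

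Few of the sites were read often. The members had a median of 2 raw reads over all libraries and a maximum of 199, against a median of 4 and a maximum of 8771 at named miRNA sites. Just inside the rule, 172 members (38.1%) had 1 read in all, and just outside it 3271 listed PC pairs had none. Only 26 members (5.75%) reached 20 reads, compared with 125 named sites (30.7%).

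Many rows repeat the same reads, since isoforms of a unigene share sequence and several PC sequences may point to 1 position. The reads of 213 members (47.1%) were listed on more than 1 transcript. Rows of 1 position, and rows of isoforms with identical shared reads, were therefore joined, which left 311 read sets with 2519 reads. The 19 read sets with 20 reads or more, from 14 PC sequences, held 59.2% of these reads, and PC-3p-217_12084 alone held 21%.

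The alignment score is a penalty for mismatches, and 0 is no penalty. The median was 4 for members and 3.5 for named sites, and 246 members (54.4%) had the highest score listed, 4, compared with 40.3% of named sites. A score of 2 or lower was found for 51 members (11.3%) and 63 named sites (15.5%). Among sites with 20 reads or more these were 5 of 26 members and 35 of 125 named sites.

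The share of listed PC pairs that had any read differed little with the score, as the plot by alignment score shows. It was 10.1% of 79 pairs at a score of 0, 12% of 92 at 1, 11.8% of 195 at 2 and 12% of 2043 at 4. Of the pairs listed for named miRNAs, 11.4% had a read at 0, 56.7% at 1, 61.2% at 2 and 20.3% at 4. These shares come from the rule itself and were not tested.

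**Figure D1:**
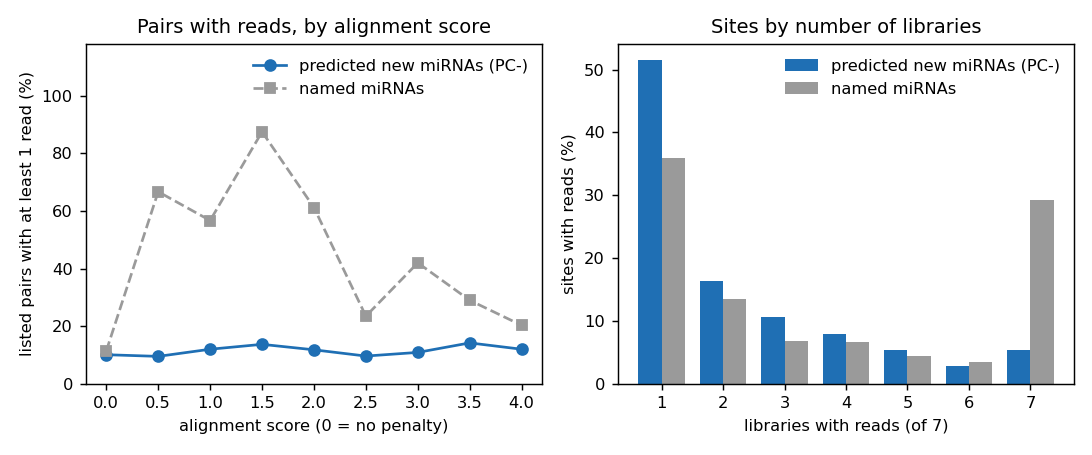
Left, percent of listed pairs with at least 1 degradome read (y axis) at each alignment score (x axis), for PC sequences (blue) and named miRNAs (grey, dashed). The PC line stays between 9.52% and 14.2%. Right, percent of sites with reads (y axis) by the number of libraries in which they were read (x axis), where 5.31% of PC sites and 29.2% of named sites had reads in all 7.

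The listed position lay opposite the middle of the small RNA. It was opposite base 10 of the PC sequence in 417 members, base 9 in 29 and base 11 in 6. At named sites these numbers were 374, 18 and 15. The position is part of each predicted pair, so this placement was not tested against the reads. Along the unigene the read sets had a median position of 53.2% of its length, with quartiles of 28.7% and 74.2%, near the 48.2% of named sites.

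Each site also has a deposited peak category per library, from 0 to 4, of which category 4 held exactly the sites with 1 read. In the usual scheme, category 0 is the single highest peak of its transcript. The best category over the libraries was 0 for 20 members (4.42%) and for 99 named sites (24.3%), 2 for 168 members and 4 for 236 (52.2%). Among the 19 best read sets, 7 reached category 0 and 12 did not go beyond category 2. PC-3p-217_12084 accounted for 4 of the 7, and the others were PC-5p-4326114_1, PC-5p-998566_2 and PC-5p-393855_4.

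Presence over libraries followed the number of reads. Of the members, 233 (51.5%) were read in 1 library and 24 (5.31%) in all 7, against 35.9% and 29.2% of named sites. All 24 had 20 reads or more. Of the 19 best read sets, 17 had reads in every library, and of 47 sets with 7 to 19 reads none did, the median being 4 libraries. At named sites it was 53 of 62 and 1 of 30.

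How evenly the reads were spread also varied. Over the 19 sets the coefficient of variation (CV) of the scaled reads had a median of 0.655 and ran from 0.299 to 1.36, and the highest library held a median of 27.5% of the reads. At named sites with 20 reads the median CV was 0.588. The most even set was PC-3p-122169_14 on comp120315_c0_seq6, and the least even was PC-5p-998566_2 on comp117403_c0_seq4, with raw reads of 3, 10 and 1 in water fruit of day 0, 5 and 8, 9 and 1 with ABA and 1 and 0 with NDGA on day 5 and 8. The highest library was CK0 for 5 of the 19 sets, CK5 for 5, CK8 for 3, ABA5, ABA8 and NDGA8 for 2 each, and NDGA5 for none.

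Summed over the read sets, member reads ranged less among the libraries than those of named sites. As a rate of the library's read total (RPM), they came to 16.1 RPM in CK0 (exact Poisson 95% interval 14.9 to 17.4) and 10.2 RPM in ABA8 (8.93 to 11.6), the highest and the lowest. Named sites together ranged from 102 RPM in ABA8 to 1022.5 RPM in CK5. Intervals here and below cover counting error only, and reads are not independent molecules.

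The highest pile was on comp101369_c1_seq1, annotated as the beta subunit of elongation factor EF-1, which recharges the factor that brings aminoacyl-tRNA to the ribosome. At position 401, assigned to PC-5p-1425883_2 with a score of 3, it had 27, 39.7 and 39 scaled reads in water fruit of day 0, 5 and 8, 28.9 and 23 with ABA and 22.2 and 16.4 with NDGA on day 5 and 8. CK5 and CK8 were the highest and NDGA8 the lowest, and NDGA8 was 2.38-fold below CK8 (95% counting interval 1.12 to 5.61). The mRNA was at 124 to 158 RPKM throughout.

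The same PC sequence was assigned to position 151 of comp96221_c0_seq1, a glutathione peroxidase, an enzyme that reduces peroxides. This site, with a score of 3.5, had 19, 28.8 and 32.5 scaled reads in water fruit of day 0, 5 and 8, 16.8 and 15.3 with ABA and 28.8 and 14.6 with NDGA on day 5 and 8. On day 8 both treatments lay below CK8, by 2.12-fold for ABA (1.09 to 4.33) and 2.23-fold for NDGA (0.998 to 5.63), and the mRNA was at 79 to 115 RPKM. Under another scaling ABA8 lay above CK8 at this site. Neither site was beyond category 2 in any library. The small RNA itself had 3 reads in all small RNA libraries together, 2 in CK5 and 1 in ABA8.

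PC-3p-217_12084 had 7 sites in 5 read sets, and 4 of the sets were among the best read. On comp112346_c0 at position 27, shared by 2 isoforms, scaled reads were 33.1, 24.7 and 6.5 in water fruit of day 0, 5 and 8, 26.9 and 3.28 with ABA and 34 and 65.6 with NDGA on day 5 and 8. NDGA8 was 10.1-fold above CK8 (4.21 to 29.3), while ABA8 was the lowest, with 3 raw reads against 6 in CK8. The score was 3.5, and a miR482 form was assigned the same reads with a score of 0. The isoforms were weakly expressed, at 0.185 to 1.3 RPKM for comp112346_c0_seq1 and 0.0522 to 1.03 for comp112346_c0_seq2.

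On comp97298_c0, where the score was 1.5, scaled reads were 46, 9.59 and 23.8 in water fruit of day 0, 5 and 8, 12.8 and 10.9 with ABA and 39.2 and 32.8 with NDGA on day 5 and 8. CK0 and both NDGA libraries were the highest, and CK5 and both ABA libraries the lowest. ABA8 was below CK8 here, but above it under another scaling. A miR482 form was assigned the same reads. CK5 was 4.8-fold below CK0 (2.22 to 12.3), and NDGA5 was 4.09-fold above CK5 (1.76 to 11). The isoform comp97298_c0_seq6 went from 2.04 RPKM in CK0 to 0.55 in ABA8, with 1.16 in CK5 and 1.27 in NDGA5.

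A different order was found at the first of 2 further sites of PC-3p-217_12084, both with the weakest score of 4. On comp120586_c0_seq1 scaled reads were 4.29, 27.4 and 23.8 in water fruit of day 0, 5 and 8, 12.1 and 2.19 with ABA and 7.85 and 21.9 with NDGA on day 5 and 8. CK5 was 6.38-fold above CK0 (2.59 to 17.9), opposite to comp97298_c0, and ABA8 was 10.9-fold below CK8 (2.67 to 95.5, from 2 and 22 raw reads). Its mRNA stayed between 6.06 and 8.49 RPKM. On comp120583_c0_seq29 the range was from 20.8 scaled reads in CK0 to 1.09 in ABA8, and CK0 was the highest as on comp97298_c0.

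**Figure D2:**
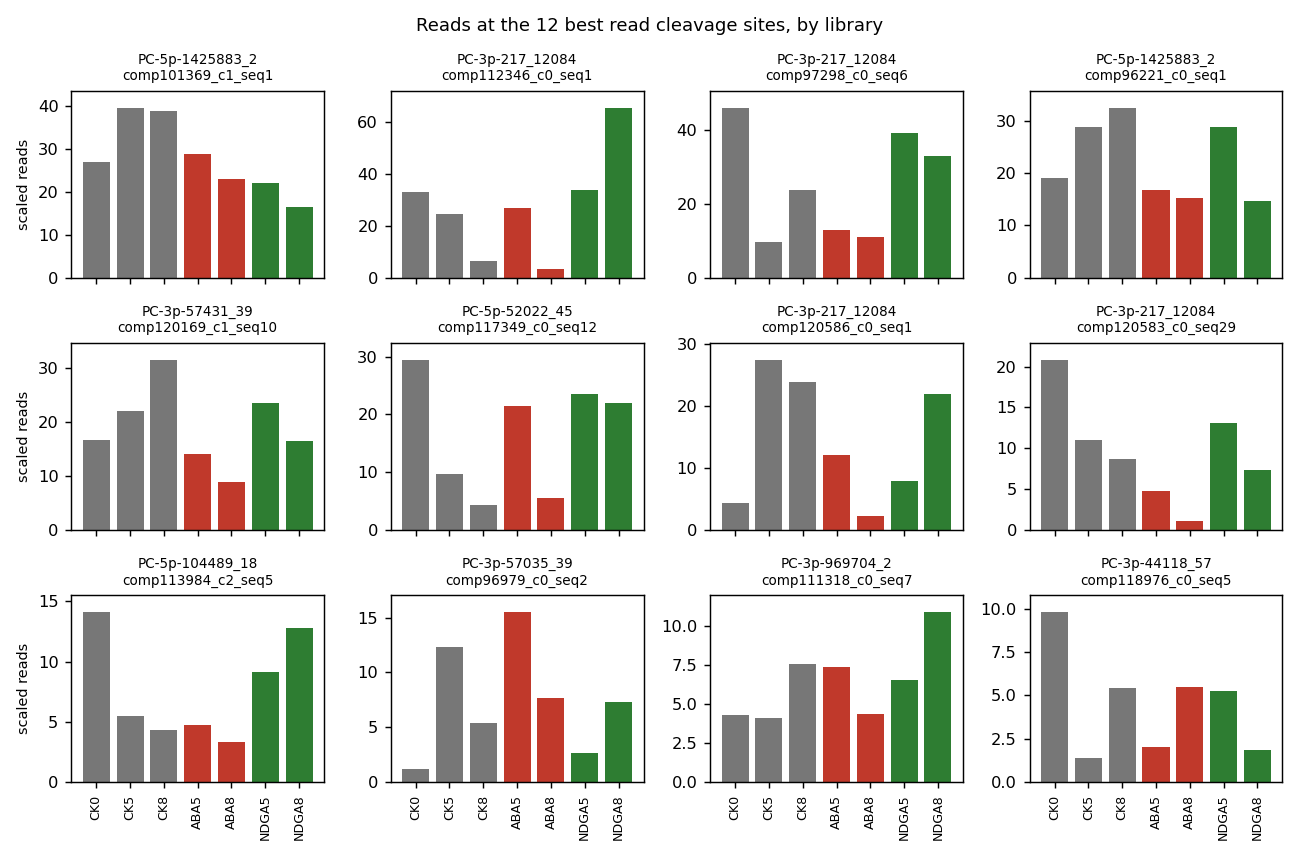
Scaled reads (y axis, each panel with its own scale from 0) in the 7 libraries (x axis) at the 12 best read sites, 1 panel per read set, with CK in grey, ABA in red and NDGA in green. Sites of PC-3p-217_12084 differ among themselves, with CK0 at 46 on comp97298_c0_seq6 and at 4.29 on comp120586_c0_seq1.

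PC-5p-52022_45 had 7 sites in 3 read sets. The best, at position 553 of comp117349_c0 with a score of 1, lies on a calcium-transporting ATPase by its ontology terms, a pump that moves calcium out of the cytosol. Scaled reads were 29.4, 9.59 and 4.33 in water fruit of day 0, 5 and 8, 21.5 and 5.47 with ABA and 23.5 and 21.9 with NDGA on day 5 and 8. They fell 3.07-fold from CK0 to CK5 (1.38 to 8.04), and NDGA8 was 5.05-fold above CK8 (1.53 to 21.5). The mRNA did not show this course, with 46.1 RPKM in CK0, 58.6 in CK5, 48.7 in CK8 and 35.7 in NDGA8 for comp117349_c0_seq6.

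PC-5p-52022_45 as a small RNA had normalized values of 1.43, 2.42 and 8.11 in water fruit of day 0, 5 and 8, 1.23 and 2.59 with ABA and 31.6 and 13.1 with NDGA on day 5 and 8, from 73 reads. Its highest libraries were those with NDGA, and CK0, the highest library at the site, had 1 read of it. The same reads at that site were also assigned to the miR3627 form, whose small RNA level is not given here. Small RNA and site are therefore values side by side, and their relation was not tested.

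The second set of PC-5p-52022_45 lay on 3 isoforms of comp104453_c0, whose ontology terms name cellulase activity and cell wall modification. With a score of 4, scaled reads were 0.613, 5.48 and 1.08 in water fruit of day 0, 5 and 8, 4.7 and 12 with ABA and 2.62 and 7.29 with NDGA on day 5 and 8. ABA8 exceeded CK8 11.1-fold, from 11 and 1 raw reads (1.62 to 479). The mRNA had its lowest and highest libraries in the same places, and comp104453_c0_seq9 was at 16.7, 262 and 200 RPKM in water fruit of day 0, 5 and 8, 476 and 789 with ABA and 56.1 and 179 with NDGA on day 5 and 8.

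PC-3p-57431_39 was assigned, with a score of 3.5, to the best expressed target, comp120169_c1_seq10, which carries no annotation. Scaled reads were 16.6, 21.9 and 31.4 in water fruit of day 0, 5 and 8, 14.1 and 8.76 with ABA and 23.5 and 16.4 with NDGA on day 5 and 8. ABA8 was 3.59-fold below CK8 (1.6 to 9.08). The mRNA was at 334, 656 and 831 RPKM in water fruit of day 0, 5 and 8, 707 and 386 with ABA and 419 and 775 with NDGA on day 5 and 8. Site and mRNA were both lower in ABA8 than in CK8, but in NDGA8 the site was at 16.4 with the mRNA at 775 RPKM, and in NDGA5 at 23.5 with 419 RPKM. The direction of the site in ABA8 turned under another scaling, to a log2 ratio of 0.42.

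PC-3p-57035_39 on comp96979_c0, with a score of 4 and no annotation, rose from 1.23 scaled reads in CK0 to 12.3 in CK5, 10.1-fold (2.08 to 95.6, from 2 and 9 raw reads). The mRNA of comp96979_c0_seq4 went from 12.7 to 50.8 RPKM between the same libraries. With NDGA on day 5 the site was at 2.62 scaled reads and the mRNA at 28.4 RPKM. In ABA5 both were above CK5, at 15.5 scaled reads and 55.9 RPKM. The site was below CK5 in CK8, ABA8 and NDGA8, at 5.42, 7.66 and 7.29 scaled reads. There the mRNA was above CK5, at 62, 56.7 and 64.5 RPKM. PC-5p-104489_18 on comp113984_c2_seq5, named for chloroplast protein targeting in its ontology terms, had 14.1 scaled reads in CK0, 5.48 in CK5, 4.33 in CK8 and 12.8 in NDGA8, with the mRNA at 116, 119, 117 and 105 RPKM. Those site values rest on 23, 4, 4 and 7 raw reads, and the counting interval of NDGA8 against CK8 was 0.749 to 13.7. In ABA5, ABA8 and NDGA5 this site was at 4.7, 3.28 and 9.15 scaled reads. PC-3p-969704_2 on comp111318_c0_seq7 ran from 4.11 scaled reads in CK5 to 10.9 in NDGA8. These were 3 and 6 raw reads, and no comparison of this site was called.

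**Figure D3:**
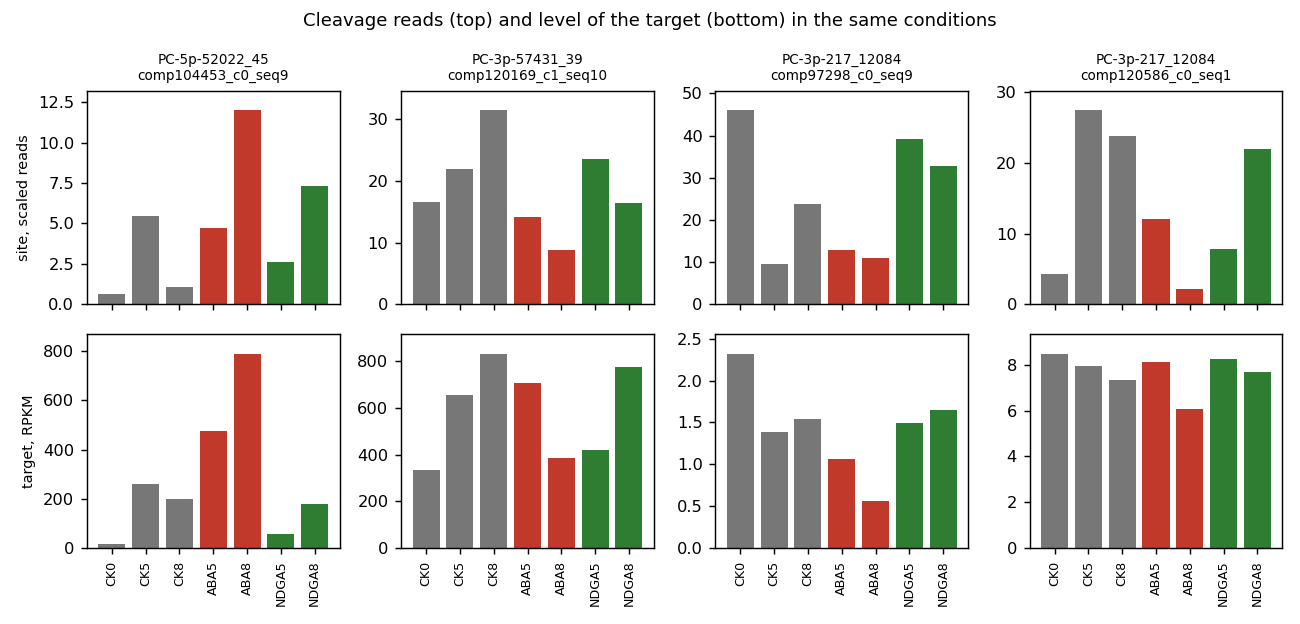
Scaled reads at the site (top) and RPKM of the target (bottom), both on y axes from 0, in the 7 conditions (x axis) for 4 sites, with CK in grey, ABA in red and NDGA in green. On comp104453_c0_seq9 both were lowest in CK0 and highest in ABA8, whereas on comp120586_c0_seq1 the site ran from 2.19 to 27.4 scaled reads and the target only from 6.06 to 8.49 RPKM.

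Some of these positions are also assigned to named miRNAs. At 13 members, from 5 PC sequences, a named miRNA had a site within 1 base, and in 15 of 16 combinations both rows held the same reads in every library. These members held 519 of the 2519 reads (20.6%) and 3 of the 19 best read sets. The combinations joined PC-3p-217_12084 with a miR482 form on comp112346_c0 and comp97298_c0, and PC-5p-52022_45 with the miR3627 form on comp117349_c0 and comp119035_c0. PC-5p-152357_11 met the miR827 5p form on comp105788_c1 and comp89478_c0, PC-5p-36983_74 met miR396 forms on comp93490_c0_seq5, and PC-3p-4094_1077 met the miR156j 3p form on comp120413_c0_seq3.

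The better score went either way. On comp117349_c0 it was 1 for PC-5p-52022_45 and 2.5 for the miR3627 form, whereas on comp119035_c0, with 5 reads, it was 4 and 1. On comp97298_c0 it was 1.5 for PC-3p-217_12084 and 2 for the miR482 form, and on comp112346_c0 it was 3.5 and 0. The PC sequence had the lower penalty in 5 combinations and the named miRNA in 6.

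In a few components several PC sequences met on 1 short stretch. On comp105275_c0_seq5, a unigene of 546 nt without annotation, 22 members from 22 PC sequences lay at 13 positions between 326 and 447. It was weakly expressed, at 1.06 to 1.93 RPKM, and 7 of the 22 had a score of 1 or lower. The best read, PC-5p-4326114_1 at position 429 with a score of 1, had raw reads of 3, 4 and 2 in water fruit of day 0, 5 and 8, 15 and 2 with ABA and 1 and 1 with NDGA on day 5 and 8. ABA5 was thus the highest, with 10.1 scaled reads, and this PC sequence had 1 small RNA read, in NDGA8.

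At position 347 of the same unigene 6 PC sequences shared 1 degradome read, and 4 of these had 1 seed. Over all members, 18 of 424 positions, with 46 of the 452 pairs, had more than 1 PC sequence, and 12 seeds were held by more than 1 of them. The group at position 347 shows how close such sequences are.
PC-3p-36668_75: cTAAATTGaacttttgaaagcc
PC-3p-74206_27: cTAAATTGaacttttgaaagcct
PC-3p-206904_8: cTAAATTGaacttttgaaagct
PC-3p-283252_6: tTAAATTGaacttttgaaagcct

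A second such place was comp96996_c0, with 16 members from 11 PC sequences, 11 of the members from 24-nt sequences. Another was comp105054_c0_seq2, with 8 members, 2 of them with a score of 0. One of these, PC-5p-218741_7 at position 1025, had 13 reads in 6 libraries, and the other, PC-3p-3710075_1 at position 978, had 10 reads in 4. The 8 members with a score of 0 had a median of 3 reads. They included PC-5p-88912_22, which holds a miR156 sequence, at position 15 of 3 isoforms of comp102851_c1, where its 3 reads all came from ABA8.

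Of the 178 PC sequences, 175 were matched by name and sequence in the small RNA table. PC-3p-217_12084, with the most cleavage reads, was not among them and is not in the plot of small RNA and cleavage reads. Their reads over 7 libraries had a median of 11 and ran from 0.5 to 10125.0, fractions of a read being listed in that table. The 28 PC sequences with at most 3 small RNA reads held 513 degradome reads, of which PC-5p-1425883_2 had 351. The 10 with at least 100 small RNA reads held 181, of which PC-3p-57431_39 had 128. A single sequence thus made up most of each sum, and the sums do not set the groups apart. The 3 with the most small RNA reads were PC-3p-387_6421, PC-3p-4094_1077 with 1096.0 and PC-3p-12760_352 with 760.

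PC-3p-387_6421 had 10 sites in 6 read sets, with 18 degradome reads in all and no score below 3. Its normalized small RNA value was 2423.8, 1216.0 and 1425.1 in water fruit of day 0, 5 and 8, 551 and 384 with ABA and 1703.7 and 1753.9 with NDGA on day 5 and 8, the lowest being both ABA libraries. PC-3p-4094_1077 and PC-3p-12760_352, both close to the miR156j 3p form, had 1 site with 1 read each. The most sites were held by PC-3p-969704_2, with 16 from 4 small RNA reads, and PC-5p-516969_3, an 18-nt sequence with 14 from 18, followed by PC-3p-387_6421. The first 2 each had 1 well read set, of which that of PC-5p-516969_3 lay on RNA polymerase II subunit I unigenes of comp99762_c0 and had 27 reads, at most 8 in a library.

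**Figure D4:**
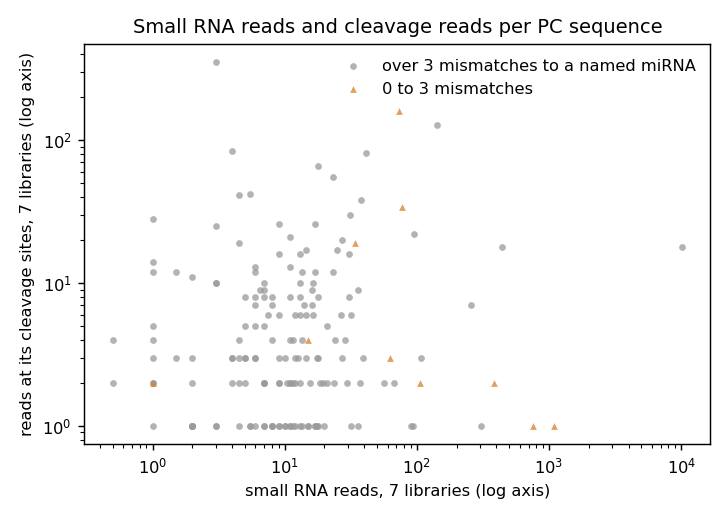
Reads at the cleavage sites of each PC sequence (y axis, log) against its small RNA reads (x axis, log), both summed over 7 libraries, for 175 PC sequences, with those within 3 mismatches of a named miRNA as orange triangles. PC-5p-1425883_2, at 3 small RNA reads, has the most cleavage reads of those plotted, and PC-3p-387_6421, at 10125.0, has 18.

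The targets were better expressed than unigenes in general. The mean RPKM over 7 libraries had a median of 6.85 for the 394 targets, 5.37 for the 296 targets of named miRNAs and 0.739 for all 98703 unigenes with a value in every library. The 2336 targets of PC pairs without reads had a median of 1.59. Median lengths differed too, at 1765.5 nt for the member targets, 1783 nt for those of named miRNAs and 545 nt for all unigenes. Targets of PC pairs without reads had 1107.5 nt. The number of fragments also depends on the amount of mRNA, so the RPKM is not independent of the rule, and it was not tested. The 26 targets of members with 20 reads or more had a median of 21 RPKM, and the 150 targets of members with 1 read 2.93 RPKM.

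The share of well read sets differed with the level of the target. Of the 15 read sets on targets of 100 RPKM or more, 5 (33.3%) had 20 reads, compared with 4.65% of 43 sets under 1 RPKM, 4.32% of 139 from 1 to 10 RPKM and 5.26% of 114 from 10 to 100 RPKM. At named sites the shares below 100 RPKM were 25%, 29.1% and 23.6%, and at 100 RPKM or more it was 80% of 5 sets. The library with the most scaled reads was also that with the highest RPKM for 6 of the 19 best read sets.

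**Figure D5:**
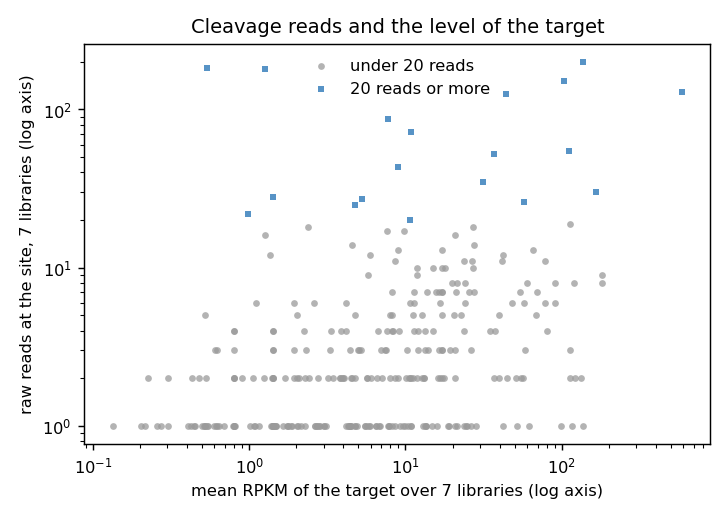
Raw reads at each of 311 read sets over 7 libraries (y axis, log) against the mean RPKM of the target (x axis, log), with sets of 20 reads or more as blue squares. The set with 199 reads lies at 136 RPKM, whereas those with 183 and 181 reads lie among weakly expressed targets.

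An enzyme or protein name was given for 48 of the 394 targets (12.2%) and for 31 targets of named miRNAs (10.5%). Groups were found by words in the annotation and may miss targets without such a name. By annotation, 199 of the 394 targets carried any term. Kinase terms were found for 32 of these in 13 components (16.1%, and 14% of named targets), with 92 reads and at most 16 at a site. That site was on a casein kinase 2 beta subunit, comp114867_c0, and 10 of the 32 were isoforms of comp106717_c0, with terms of pantothenate kinase, which starts coenzyme A synthesis. Those isoforms held 42 of the 92 reads, in 7 read sets. Such sets share reads, so some reads may be counted more than once. Transcription factor terms, the most frequent kind of target known for conserved plant miRNAs, were found for 3 targets (1.51%) and for 11 named targets (6.4%).

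The 3 transcription factor targets had 7, 4 and 3 reads. PC-5p-552867_3 on comp116537_c1_seq7 had 3 raw reads in ABA5 and 1 in ABA8, where the mRNA was at 79.8 and 112 RPKM, against 4.11 in CK0 and 23.9 in CK5. The other 2 targets carry a term for ABA signalling. PC-5p-149728_11 on comp111695_c0_seq1 had 3 reads, all in CK0, while the mRNA was highest in ABA8, at 14.1 RPKM. Translation terms were found for 9 targets, led by EF-1 beta, and the other 8 had 10 reads or fewer. Protein turnover terms were found for 7 targets, with at most 2 reads a site, transport terms for 4 and cell wall terms for 4, of which 3 were the comp104453_c0 isoforms. Disease resistance terms were found for none of the targets of either kind, and silencing terms for none here and 1 named target. Few targets carried an enzyme or protein name, so a group not found by its words may still be present.

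Of 336 unigenes listed for pigment, ascorbate and folate pathways, 2 were member targets (0.508% of these targets), beside 2 of the named miRNA targets (0.676%). In all, 98703 unigenes had a value in every library, and 2 targets are too few to set the members apart from unigenes in general. Chorismate mutase, comp113505_c1_seq5, which takes chorismate toward phenylalanine, was assigned to PC-5p-3319178_1 at position 1175 with a score of 3. It had raw reads of 5, 1 and 2 in water fruit of day 0, 5 and 8, 3 and 0 with ABA and 2 and 1 with NDGA on day 5 and 8, too few to show a difference. The other, comp104149_c0_seq2, an L-galactose dehydrogenase of ascorbate synthesis, had 1 read in each of 4 libraries with PC-5p-127550_14 and a score of 4.

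Between conditions, a site was called when scaled reads + 1 differed at least 2-fold and 1 of the libraries had at least 10 scaled reads. In ABA5 against CK5, 2 of the 16 members measured were higher and 3 lower, where 11.2% and 23.5% of all 98 sites measured were. In ABA8 against CK8, 3 of 9 were higher and 5 lower, against 11.4% and 49.4% of 79. In NDGA5 against CK5, 4 of 15 were higher and 5 lower, against 27.7% and 13.9% of 101, and in NDGA8 against CK8, 5 of 12 were higher and 2 lower, against 15.6% and 11.1% of 90. Both NDGA comparisons share their CK libraries with the ABA comparisons.

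In the control fruit, 5 of 16 were higher and 5 lower in CK5 than in CK0, against 10.4% and 44.3% of 115, and 2 of 13 were higher and 6 lower in CK8 than in CK5, against 11.8% and 22.4% of 85. Isoform rows repeat reads, and by read set the members called higher and lower were 1 and 3 in ABA5, 1 and 4 in ABA8, 2 and 4 in NDGA5, 3 and 2 in NDGA8, 4 and 3 in CK5, and 1 and 4 in CK8. Such numbers are too small to set the members apart from the other sites.

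The calls depend on the scaling. When libraries were brought to the same sum of reads over the whole table, which named sites dominate, 10 members were higher and 0 lower in ABA5, 32 and 1 in ABA8, 4 and 1 in NDGA5, 5 and 0 in NDGA8, 1 and 6 in CK5, and 3 and 2 in CK8. This moved the ratios of all sites, members or not, by 1.42 on the log2 scale in ABA5 and 2.28 in ABA8. The share of all sites called under this scaling is not given here, so these counts are no result about the members. With it the direction turned for comp120169_c1_seq10, comp96221_c0_seq1 and comp97298_c0 in ABA8 and for comp120586_c0_seq1, comp120583_c0_seq29 and comp117403_c0_seq4 in ABA5, whereas the other named calls kept theirs.

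The least read of the called sites varied most. PC-5p-393855_4 on comp101453_c0_seq3 had 1, 8 and 1 raw read in water fruit of day 0, 5 and 8, 9 and 0 with ABA and 3 and 0 with NDGA on day 5 and 8, so that CK5 was 17.9-fold above CK0 with an interval of 2.4 to 793. PC-5p-998566_2 was 10.5-fold lower in NDGA5 than in CK5 (1.49 to 455). CK5 and ABA5 were the highest libraries at both sites, and the target of the first was at 0.304 to 2.2 RPKM.

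The targets themselves were called when RPKM + 0.1 differed at least 1.5-fold and 1 library had at least 1 RPKM. In ABA5 against CK5, 54 of 355 were higher and 18 lower (15.2% and 5.07%), where 15.1% and 13% of all unigenes were. In ABA8 against CK8, 48 of 359 were higher and 115 lower (13.4% and 32%, against 18.7% and 36.1%), and after rescaling by the median ratio 59 were higher and 79 lower. In NDGA5, 37 of 360 were higher and 42 lower (10.3% and 11.7%, against 14.8% and 11.8%). In NDGA8, 56 of 361 were higher and 45 lower (15.5% and 12.5%, against 20.7% and 15.3%), and 39 and 55 after rescaling. The shares of all unigenes are without this rescaling, so the rescaled counts of ABA8 and NDGA8 have no share beside them.

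In CK5 against CK0, 54 of 360 targets were higher and 85 lower (15% and 23.6%, against 17.1% and 30%), and in CK8 against CK5, 58 of 363 were higher and 43 lower (16% and 11.8%, against 22.3% and 18.8%). The median log2 ratio of the targets and of all unigenes was −0.05 and −0.06 in ABA5, −0.33 and −0.28 in ABA8, 0.07 and 0.11 in NDGA8, and −0.15 and −0.16 in CK5 against CK0.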

How the data were processed

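The deposited degradome table gives, per predicted pair and library, a raw count of reads beginning at the cleavage position, an estimated count in which the authors divided those reads among transcripts, a tags-per-billion score and an alignment score. Library totals were recovered from the scores, and no source here states what they count. The deposited RPKM per unigene comes from reads the authors filtered with the NGS QC toolkit and assembled with Trinity and TGICL. The deposited small RNA table gives estimated counts and a normalized score, while the degradome tool, the small RNA tool and the genome build are not named in any source used here. The authors' p-values were not used, among them 7 columns of site p-values, which hold 1 value per site and library.

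The estimated counts turned out not to be scaled by library, so raw reads were scaled by the recovered totals in place of the normalized reads first planned. Ratios of scaled reads carry exact (Clopper-Pearson) 95% intervals. There were 7 libraries per assay and 1 per condition, so no test was made. A unigene's isoforms and near-identical copies of the octaploid genome share reads. Isoforms whose shared reads differ slightly, as in comp106717_c0, remained apart as read sets. Sites were named by number of reads, libraries, score, fold and position shared with a named miRNA, and the sites of score 0 and those of the annotation lists were named after their values were seen. The background for calls of sites was changed, after the counts were seen, from all sites with reads to those with at least 10 scaled reads in 1 of the libraries compared. Members and lists were chosen with earlier results of these data known. The size rule and the intervals were tested on simulated data. At sites picked by their simulated reads the intervals of the largest simulated fold covered the true value less often than stated, and the test was then made at sites with at least 2 expected reads instead, where that fold was still below 95%. The printed intervals are for sites picked by reads and fold, so they may be too narrow. Python 3.11.15, numpy 2.4.6, pandas 2.3.3, scipy 1.17.1 and matplotlib 3.10.9 were used.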

Additional observations from a re-analysis of the deposited data

How the results depend on the processing

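No paired analysis was possible because each condition had 1 library per assay, and for the same reason no replicate could be left out. Called member sites numbered 5 and 8 with ABA and 9 and 7 with NDGA on day 5 and 8 against water, 10 in CK5 against CK0 and 8 in CK8 against CK5. With no minimum they became 91, 168, 140, 160, 117 and 160, as sites with 1 or a few reads then enter. A minimum of 20 scaled reads left 3 in ABA5, 4 in CK8 and 5 each in CK5, ABA8 and NDGA5. A 3-fold rule left 0 in ABA5, 5 in ABA8, 4 in NDGA8 and 4 in CK8, and a pseudocount of 5 left 0 in ABA5, 5 in ABA8 and 4 in CK8. Scaling by the table sum gave 10 in ABA5, 33 in ABA8 and 5 each in CK8 and NDGA5. It moves all sites, and the share of all sites called under it is not given here. Of alternatives chosen after seeing the data, counting each read set once left 5 in ABA8 and 5 in CK8, and the deposited division of reads among transcripts left 3 in ABA8. For targets, a minimum of 5 RPKM changed the calls from 72, 163, 79, 101, 139 and 101 to 39, 96, 42, 52, 83 and 53, in the same order, since fewer targets are then measured. Asking for 5 reads left 120 of 452 members, and among members with 20 reads 92.3% were read in all libraries and the median target level was 21 RPKM.

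Of 301 values for 43 named calls, 223 kept direction and size rule, 71 kept the direction only and 7 reversed. All 7 came from scaling by the table sum, with log2 ratios of 0.21 for comp117403_c0_seq4, 0.23 for comp120586_c0_seq1 and 0.17 for comp120583_c0_seq29 in ABA5, and 0.42 for comp120169_c1_seq10, 1.17 for comp96221_c0_seq1 and 1.12 for both isoforms of comp97298_c0 in ABA8. Which scaling is closer to the RNA was not tested. At these depths sites with few reads cannot show a difference between conditions.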
